A study of Mus musculus and Bos taurus with 6 samples.

Results

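The miRNA of the miR-99/100 and miR-125 groups that are encoded beside let-7 were followed in small RNA libraries of the lactating mammary gland. Members were the listed lines under a mouse or bovine name for miR-99a, miR-99b, miR-100, miR-125a or miR-125b, on either arm of the precursor. This gave 11 of the 1750 miRNA listed for mouse and 9 of the 1539 listed for bovine, where 6 carried a bovine and 3 a mouse name. All of them had at least 1 count in every library of their files. In the bovine files, miR-125b-1-3p and miR-125b-2-3p were listed only under a human name, and these lines are given beside the members and not counted among them.

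There were 3 groups of 2 libraries. The mouse libraries came from the fourth mammary gland, without its lymph node, of FVB/N females on day 12 of their first lactation. The AGO2 libraries came from the same stage and strain, from small RNA that a monoclonal antibody against Argonaute 2 precipitated from gland lysates. Each bovine library came from biopsies of 2 pooled Holstein cows in mid-lactation, of later parity and on a low-forage hay diet, so that species, diet, parity, pooling and RNA kit change together and cannot be told apart. The methods name 2 mice in all, and which mouse gave which library is not given in the sources used here, so that AGO2 and mouse libraries may share animals. The p-values therefore measure the spread between libraries, which may in part be technical.

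A miRNA is cut from a hairpin precursor whose 5p and 3p arms each give a short strand. A strand loaded into an Argonaute protein pairs with messenger RNA mainly through its seed, nucleotides 2 to 8, and represses the message. The miR-99/100 group is known for targeting mTOR and other growth signalling genes, miR-125 for roles in blood cell and mammary tumour biology, and let-7 as a family that increases as tissues differentiate. The primary transcripts that carry miR-99/100 and miR-125 also carry a let-7 hairpin, a linkage that is old in animal evolution.

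The guide strands are printed because their near identity bears on every value that follows. Capitals mark the seed, and T stands for U as in the deposited files. All 11 mouse members were found with the same sequence in RefSeq (GRCm38.p6), and miR-125b-5p had 2 entries there, since 2 precursors give the same strand.
miR-99a-5p: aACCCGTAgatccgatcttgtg
miR-100-5p: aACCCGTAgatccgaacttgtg
miR-99b-5p: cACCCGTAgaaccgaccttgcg
miR-125a-5p: tCCCTGAGaccctttaacctgtga
miR-125b-5p: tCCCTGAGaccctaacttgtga
The miR-99/100 and miR-125 seeds cover the 5 strands. Positions were counted from 1 at the 5′ end, and the letter of the strand named first stands before the position. From miR-99a-5p to miR-100-5p the only difference was T16A, and from miR-99a-5p to miR-99b-5p the differences were A1C, T11A, T16C and T21C. The strands of miR-125a and miR-125b were identical over their first 13 nucleotides. The bovine files listed the same sequences for miR-99b, miR-100 and miR-125b, and the strands of miR-99a-5p and miR-125a ended 1 nucleotide earlier there, at 21 and 23. The mismatches allowed in counting are not given in the sources used here, so reads of miR-99a-5p and miR-100-5p may have been exchanged. Reads were freed of the poly-A tail added to each library, which leaves a last A undefined. That touches the strands of miR-125a-5p and miR-125b-5p in mouse and of miR-125b-5p in bovine.

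The strands of the other arm share less, and only miR-99a-3p and miR-99b-3p have the same seed. They are printed to show how far each can be told from the rest.
miR-99a-3p: cAAGCTCGtttctatgggtct
miR-99b-3p: cAAGCTCGtgtctgtgggtccg
miR-100-3p: aCAAGCTTgtgtctataggtat
miR-125a-3p: aCAGGTGAggttcttgggagcc
miR-125b-1-3p: aCGGGTTAggctcttgggagct
miR-125b-2-3p: aCAAGTCAggttcttgggacct
The bovine strand of miR-99a-3p had 19 nucleotides and differed from the mouse strand by T9C. The human line that stood for miR-125b-2-3p in the bovine files starts at another base than the mouse strand and so has another seed.

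In the mouse genome (GRCm38, GENCODE annotation) the precursors lie in 3 clusters, each on the plus strand. On chromosome 16, Mir99a (chr16:77598936-77599000), Mirlet7c-1 (chr16:77599657-77599750) and Mir125b-2 (chr16:77646273-77646343) span 47408 bases, all in introns of the noncoding host gene Mir99ahg. On chromosome 9, Mir100 (chr9:41531425-41531504), Mirlet7a-2 (chr9:41536716-41536811) and Mir125b-1 (chr9:41581926-41582002) span 50578 bases, in introns of the noncoding gene 3110039I08Rik. There Mir100 also overlaps an exon of Gm48742 on the opposite strand, and Mir125b-1 an exon of Gm28119. On chromosome 17 the cluster is compact. Mir99b (chr17:17830188-17830257), Mirlet7e (chr17:17830352-17830444) and Mir125a (chr17:17830812-17830879) lie within 692 bases in introns of Spaca6, a gene for a sperm membrane protein, and Mir125a overlaps an exon of 1 transcript of it. No annotation of the bovine genome was used.

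The counts summed to between 8391916 and 9299807 in the mouse libraries, 3909166 and 5041406 in the AGO2 libraries, and 9402483 and 10613807 in the bovine libraries. Levels are RPM, reads scaled to these sums, and 1 read stands for 1 strand whatever its length. A count of 0 would allow up to 3 counts, which is between 0.283 and 0.767 RPM. Marker miRNA of mammary epithelium, such as the miR-200 group, were present in every library, and none of the 6 was at 0. Among the miRNA tested below for AGO2, the mouse libraries differed from each other by more than 2-fold in 83 of the 290 with counts in both, and the AGO2 libraries in 114 of 290.

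The members took 0.762% and 0.509% of the counts in mouse samples 1 and 2, 1.25% and 1.15% in the AGO2 samples, and 2.97% and 3.03% in the bovine samples. The bovine share was the highest and the mouse share the lowest, without overlap between the groups. Summed over the strands with the miR-99/100 seed, the level was 4228 ± 135 RPM in mouse, 8339 ± 348 RPM in AGO2 and 20099 ± 84.4 RPM in bovine (SD, n = 2 each). For miR-125a-5p and miR-125b-5p it was 2006 ± 1648 RPM in mouse, 3494 ± 1022 RPM in AGO2 and 9682 ± 577 RPM in bovine. The miR-125 sums of mouse and AGO2 overlapped, since mouse sample 1 had 3172 RPM and AGO2 sample 2 had 2771 RPM. In mouse, miR-351-5p has the miR-125 seed as well, and its level was low beside the members, at 118 and 64.7 RPM in the gland and 227 and 174 RPM in AGO2.

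miR-99a-5p (mmu-miR-99a-5p and bta-miR-99a-5p) was the most abundant member in all 6 libraries. It had 3785 and 3869 RPM in mouse, 6882 and 7386 RPM in AGO2, and 18288 and 18335 RPM in bovine. Samples of a group differed by at most 1.07-fold and the groups were far apart. It ranked 46 and 44 among all listed miRNA in mouse, 22 and 19 in AGO2, and 18 and 17 in bovine. It made up between 49.7% and 76.1% of the counts of the members.

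miR-125a-5p (mmu-miR-125a-5p and bta-miR-125a) came next in every library, with 2205 and 564 RPM in mouse, 3149 and 1813 RPM in AGO2, and 4770 and 5071 RPM in bovine. miR-125b-5p (mmu-miR-125b-5p and bta-miR-125b) had 967 and 276 RPM in mouse, 1068 and 959 RPM in AGO2, and 4504 and 5019 RPM in bovine. Mouse sample 2 was thus the low sample for both, by 3.91-fold and 3.50-fold, and mouse sample 1 lay above an AGO2 sample in each case. In bovine, the means of miR-125a-5p (4921 ± 213 RPM) and miR-125b-5p (4761 ± 364 RPM) differed by less than either SD.

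miR-99b-5p (mmu-miR-99b-5p and bta-miR-99b) had 314 and 102 RPM in mouse, 859 and 948 RPM in AGO2, and 339 and 330 RPM in bovine. Its AGO2 samples stood above all others, and the gland levels of mouse sample 1 and bovine nearly met. miR-100-5p (mmu-miR-100-5p and bta-miR-100) had 225 and 161 RPM in mouse, 351 and 251 RPM in AGO2, and 1531 and 1374 RPM in bovine. These groups did not overlap, although AGO2 sample 2 lay close to mouse sample 1. The last places therefore changed with the group. miR-100-5p was below miR-99b-5p in AGO2 and above it in bovine, and in mouse the order of this pair differed between the samples.

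**Figure D1:**
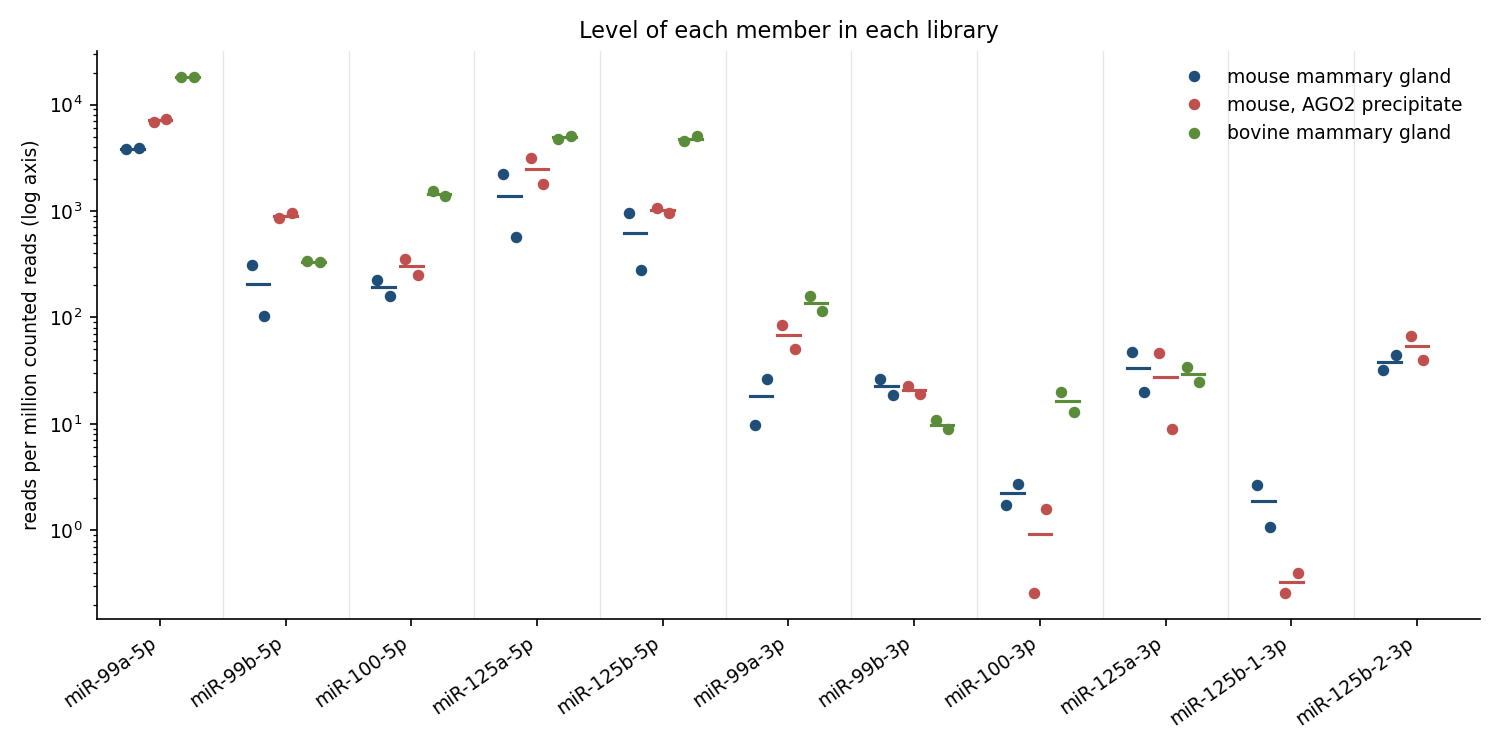
Level of each member in each of the 6 libraries, in RPM on a log axis. Points are libraries and short lines the means of 2; for the bovine gland the 2 strands listed only under a human name are not drawn. miR-99a-5p is the highest member in each library, and the bovine points lie highest for it and for miR-100-5p, miR-125a-5p, miR-125b-5p, miR-99a-3p and miR-100-3p.

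The strands of the 3p arm were rare. The most abundant was miR-99a-3p in bovine, with 160 and 114 RPM, against 9.68 and 26.6 RPM in mouse and 85.7 and 50.6 RPM in AGO2. miR-125b-2-3p had 32.0 and 44.0 RPM in mouse and 67.5 and 39.7 RPM in AGO2, and the human line of this name had 118 and 112 RPM in bovine. The first did not overlap between groups, while the second did between mouse and AGO2.

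miR-99b-3p had 26.5 and 18.7 RPM in mouse, 22.5 and 19.0 RPM in AGO2, and 10.8 and 8.86 RPM in bovine. It was the only member with both bovine samples below all mouse and AGO2 samples. miR-125a-3p had 47.2 and 19.9 RPM in mouse, 46.0 and 8.93 RPM in AGO2, and 34.0 and 25.0 RPM in bovine, with all groups overlapping. miR-100-3p held 16 and 23 counts in mouse, 1 and 8 in AGO2, and 188 and 137 in bovine, where its mean level was 16.5 ± 5.01 RPM against 2.23 ± 0.721 RPM in mouse. miR-125b-1-3p held 25 and 9 counts in mouse and 1 and 2 in AGO2, which is at or under the limit of 3 counts, and the human line had 28 and 40 counts in bovine.

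The 5p strand held nearly all counts of each precursor. Its share for miR-99a was 99.7% and 99.3% in mouse, 98.8% and 99.3% in AGO2, and 99.1% and 99.4% in bovine. miR-99b in the mouse gland had the lowest shares, 92.2% (Wilson 95% interval 91.2 to 93.1) and 84.6% (82.2 to 86.7), against 97.4% and 98.0% in AGO2 and 96.9% and 97.4% in bovine. Expressed per 1000 counts of the 5p strand, miR-99b-3p had 84.3 and 183 counts in mouse, 26.2 and 20.1 in AGO2, and 32.0 and 26.8 in bovine. The mouse samples lay above all others, and between mouse and AGO2 only the 5p strand differed beyond the overlap of the samples. Without molecular identifiers, these intervals and limits account for counting error alone.

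For miR-125a the 3p strand had 21.4 and 35.3 counts per 1000 in mouse, above the 14.6 and 4.92 in AGO2 and the 7.13 and 4.92 in bovine. For miR-125b, with the 3p strands of both precursors summed, it had 35.9 and 163 in mouse, 63.5 and 41.8 in AGO2, and 26.8 and 23.0 in bovine. Mouse and AGO2 overlapped there, and the share of miR-125b-5p in mouse sample 2 was 86.0% (84.6 to 87.2) against 96.5% in sample 1. Of the 3p strands of miR-125b, miR-125b-2-3p was the more abundant in every library, by 11.9-fold and 41.0-fold in the mouse gland. In AGO2 miR-125b-1-3p held only 1 and 2 counts, and in bovine both were human lines. These ratios do not show which precursor gave the shared 5p strand. For miR-99a the 3p strand had 2.56 and 6.87 counts per 1000 in mouse, 12.5 and 6.85 in AGO2, and 8.75 and 6.23 in bovine, and mouse overlapped both other groups. For miR-100 it had 7.65 and 17.1 in mouse, 0.728 and 6.32 in AGO2, and 13.1 and 9.39 in bovine. The AGO2 samples lay below both mouse samples, on only 1 and 8 counts, and the glands overlapped.

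**Figure D2:**
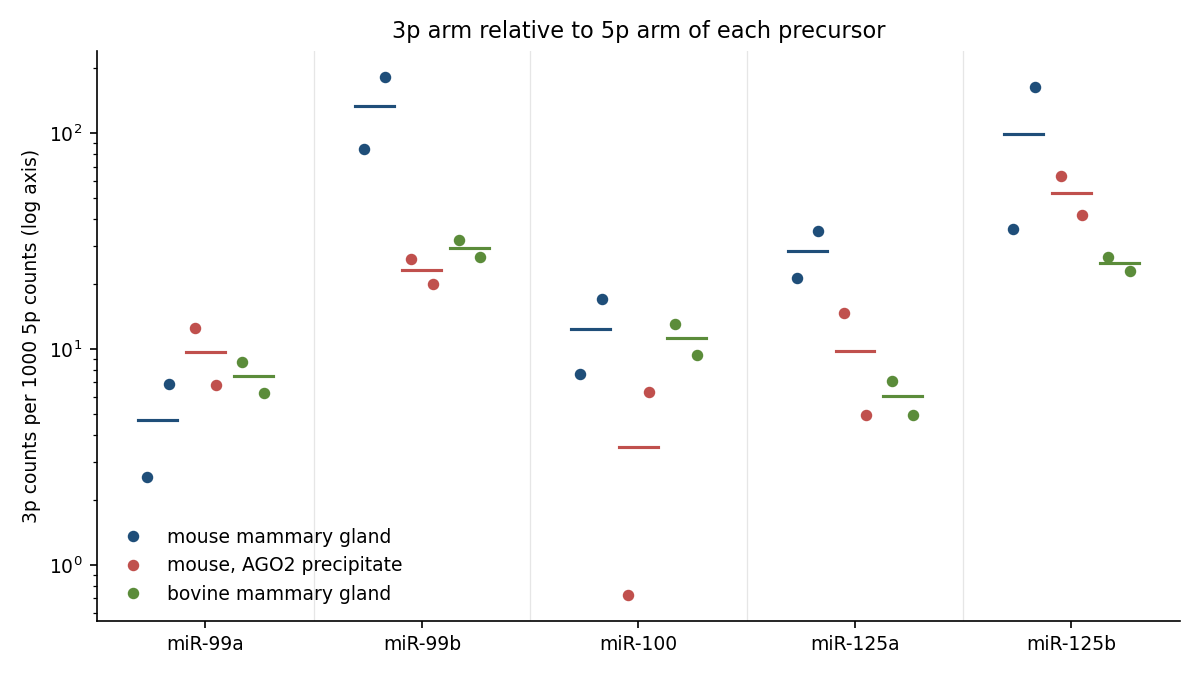
Counts of the 3p strand per 1000 counts of the 5p strand of the same precursor, on a log axis, with points for libraries and short lines for the means of 2. The mouse gland lies above both other groups for miR-99b and miR-125a and above AGO2 alone for miR-100, and the lowest point, for miR-100, rests on 1 count in an AGO2 library. In bovine, the 3p counts of miR-125b are those of the human lines.

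The AGO2 libraries were compared with the mouse gland to see which strands had a share in the precipitate other than their share of gland RNA. The series holds no control precipitate, so strands held by Argonaute 2 and background binding cannot be told apart. Of the 9 members that passed the filter on the highest count in the 4 libraries, 1 was higher in AGO2 and none was lower (edgeR quasi-likelihood test, adjusted p under 0.05). Of all 299 miRNA tested, 46 were higher, or 15.4%, and 37 lower, or 12.4%. The unadjusted p was under 0.05 for 3 of the 9 members, all of them higher, and for 131 of the 299, so that the members' share of 33.3% was below the 43.8% over all tested. DESeq2 called 3 members higher and none lower, and 69 and 48 of all tested. The median log2 fold change of the members was 0.88, against -0.12 over all tested, and 8 of the 9 were above 0, against 145 of the 299.

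The member that passed was miR-99b-5p, with a log2 fold change of 2.30 (SE 0.68, adjusted p = 0.0151 in edgeR), or 4.91-fold. Both AGO2 samples lay above both mouse samples. The call rested on mouse sample 2, the lower of the mouse samples, and without it the value was 1.73 (adjusted p = 0.136 in edgeR). Its partner on the other arm, miR-99b-3p, had a log2 fold change of 0.03 (SE 1.16).

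The other guide strands had values above 0 that did not pass. They were 1.05 (SE 0.48, adjusted p = 0.0921 in edgeR) for miR-99a-5p, 1.00 (SE 0.63) for miR-125a-5p, 0.88 (SE 0.65) for miR-125b-5p and 0.80 (SE 0.63) for miR-100-5p. The values of the miR-125 strands moved with the mouse samples. Without mouse sample 1 miR-125a-5p had 2.23 and miR-125b-5p 1.98, and without mouse sample 2 they had 0.35 and 0.26. For miR-99a-5p the AGO2 and mouse samples were well apart, and DESeq2 gave it a call (1.16, adjusted p = 0.0356 in DESeq2). Among the 3p strands the largest value was 2.03 (SE 0.91, adjusted p = 0.0909 in edgeR) for miR-99a-3p, which DESeq2 also called (2.10, adjusted p = 0.0497 in DESeq2). The AGO2 samples of miR-99a-3p lay above the mouse samples, at low counts of 90 and 223 in mouse. miR-125b-2-3p had 0.63 (SE 0.84) and miR-125a-3p -0.16 (SE 1.08), and miR-100-3p and miR-125b-1-3p were under the filter.

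The 5p strands of let-7 from the same clusters were all lower in AGO2. The log2 fold change was -2.52 (SE 0.53, adjusted p = 0.00141 in edgeR) for let-7c-5p, -2.37 (SE 0.50, adjusted p = 0.00141 in edgeR) for let-7a-5p and -2.03 (SE 0.72, adjusted p = 0.0410 in edgeR) for let-7e-5p. The last call was lost with library totals alone (-2.18, adjusted p = 0.0705 in edgeR), without mouse sample 1 (-0.79, adjusted p = 0.569 in edgeR), and without AGO2 sample 1 (-2.23, adjusted p = 0.0801 in edgeR) or 2 (-1.63, adjusted p = 0.22 in edgeR). For let-7e-5p the levels were 1389 and 352 RPM in mouse and 256 and 126 RPM in AGO2.

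Marker miRNA of cell types also differed between these groups. The summed level of the 6 epithelial markers was 159803 and 188746 RPM in mouse and 338037 and 368284 RPM in AGO2. Of these, miR-200a-3p and miR-141-3p were higher in both AGO2 samples, miR-200b-3p, miR-200c-3p and miR-429-3p were lower in both, and miR-205-5p overlapped. That of 3 erythroid markers was 13343 and 6504 RPM in mouse and 32468 and 15527 RPM in AGO2, and that of 5 fibroblast and smooth muscle markers was 54443 and 71185 RPM against 37249 and 35114 RPM. The 5 leukocyte markers summed to 1263 and 2123 RPM in mouse and 2351 and 2971 RPM in AGO2. The 3 striated muscle markers summed to 163 and 213 RPM against 27.9 and 70.2 RPM. Against their sums, miR-155-5p was lower in both AGO2 samples, and miR-199a-5p and miR-133a-3p were higher. Within these lists miR-451a, miR-486-5p, miR-145a-5p, miR-199a-3p, miR-214-3p, miR-142-3p and miR-206-3p overlapped. The 2 endothelial markers overlapped as a sum only. miR-126a-3p was lower in AGO2 (6776 and 6711 RPM against 16270 and 20468 RPM), and miR-126a-5p higher (22503 and 22108 RPM against 7924 and 13797 RPM). Only the striated muscle marker miR-206-3p was at 0, in mouse sample 2. Their part in the values of miR-99/100 and miR-125 was not tested. In whole tissue, fewer cells of a type and less RNA per cell cannot be told apart.

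Ratios of counts within a library do not depend on normalisation, and they set each strand against its neighbours in the genome. They were not tested, since 2 against 2 libraries cannot give a p below 0.33 in an exact permutation test. let-7e-5p over miR-125a-5p, whose precursors are close neighbours, was 0.630 and 0.624 in the mouse samples, 0.0812 and 0.0694 in the AGO2 samples, and 0.391 and 0.365 in the bovine samples. The mouse samples were nearly equal, although each strand was more than 3-fold lower in sample 2. The mean ratio in AGO2 was 8.32-fold lower than in the mouse gland.

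The other let-7 ratios moved the same way between mouse and AGO2. let-7e-5p over miR-99b-5p was 4.43 and 3.44 in mouse and 0.298 and 0.133 in AGO2, and 5.49 and 5.60 in bovine. let-7c-5p over miR-99a-5p was 7.43 and 2.70 in mouse and 0.621 and 0.245 in AGO2. let-7a-5p over miR-100-5p was 108 and 68.8 in mouse and 11.3 and 8.57 in AGO2. None of the 4 ratios overlapped between these groups. The strands of let-7a and let-7c are also made at other loci, so that only let-7e sets products of 1 cluster against each other. let-7a-5p differs from let-7c-5p and from let-7e-5p by 1 base each, so reads may have been exchanged among these as well. In the mouse samples let-7a-5p had 24276 and 11038 RPM, against 1389 and 352 RPM for let-7e-5p.

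Within the group itself, miR-99a-5p over miR-100-5p was 16.8 and 24.1 in mouse, 19.6 and 29.4 in AGO2, and 11.9 and 13.3 in bovine, and mouse and AGO2 overlapped. miR-125a-5p over miR-125b-5p was 2.28 and 2.04 in mouse and 2.95 and 1.89 in AGO2, and close to 1 in bovine, at 1.06 and 1.01. miR-99b-5p and miR-125a-5p share a cluster, and the first over the second was 0.142 and 0.182 in mouse, 0.273 and 0.523 in AGO2, and 0.0712 and 0.0651 in bovine. This ratio did not overlap between any of the groups, with AGO2 highest and bovine lowest.

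**Figure D3:**
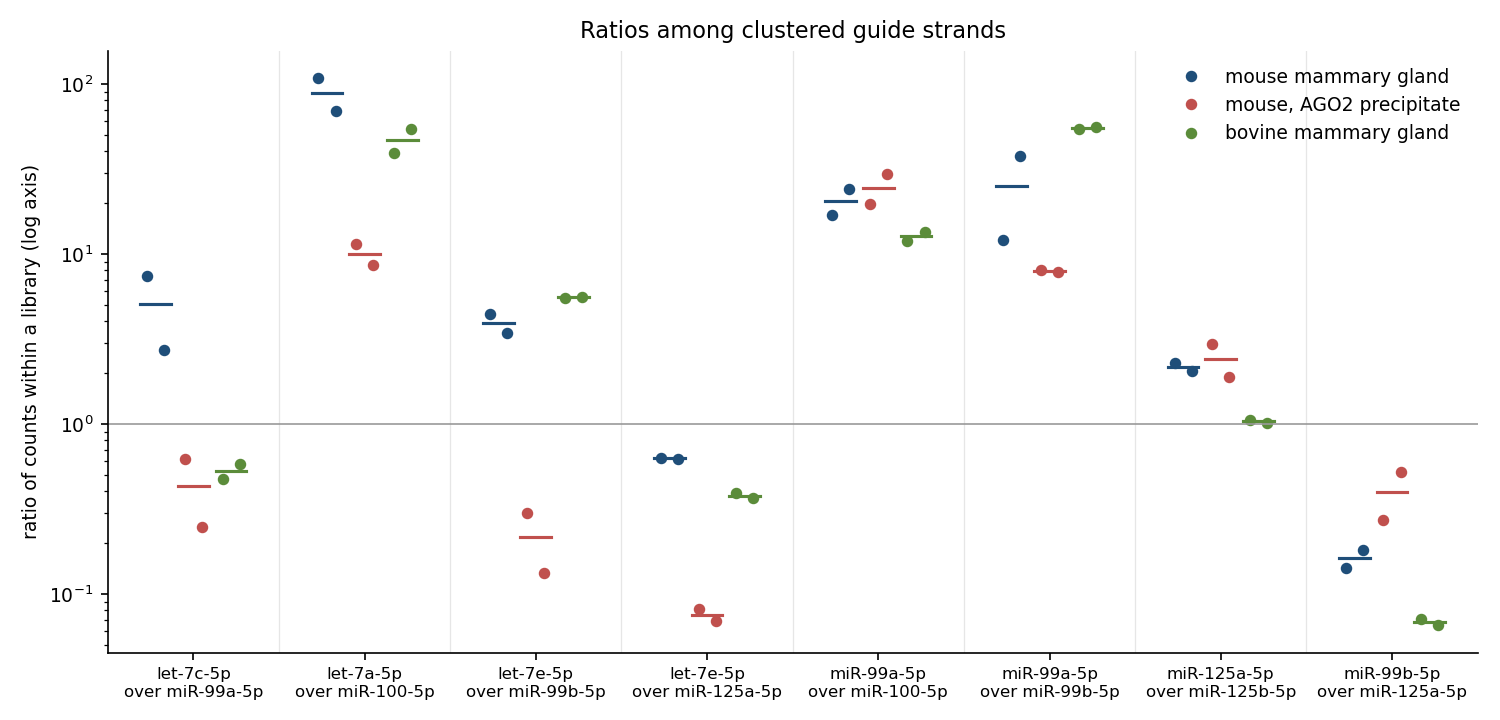
Ratios of counts within each library, on a log axis, for let-7 strands over members of the same cluster (first 4) and among members (last 4). Points are libraries and short lines the means of 2. For each let-7 ratio both AGO2 points lie below both mouse points, while miR-99a-5p over miR-100-5p and miR-125a-5p over miR-125b-5p overlap between mouse and AGO2.

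Bovine and mouse glands were compared to see how far the levels are shared between species. The test used 158 miRNA matched by name and arm with at least 100 RPM in any of the 4 gland libraries, of which 43 were higher in bovine, or 27.2%, and 44 lower, or 27.8%, with library totals alone giving 56 and 36. Of the 6 members tested in this way, 4 were higher in bovine and none lower, where DESeq2 gave 5 and none, with 48 higher and 48 lower of all tested. The unadjusted p was under 0.05 for the same 4 members, or 66.7%, and for 98 of the 158, or 62.0%. The median log2 fold change of the members was 2.22, against 0.06 over all tested, and all 6 were above 0, against 80 of the 158. With library totals alone, which in these fits are sums over the miRNA tested, the median over all tested moved to 0.57. miR-99a-3p reached 100 RPM in bovine alone, at 160 and 114 RPM against 9.68 and 26.6 RPM in mouse. Its call, its sign and its part in the median therefore come with the filter and are no support. The filter also left out miR-99b-3p, whose bovine samples lay below both mouse samples.

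For miR-99a-5p the log2 fold change was 1.89 (SE 0.26, adjusted p = 0.00194 in edgeR), or 3.71-fold. For miR-100-5p it was 2.55 (SE 0.36, adjusted p = 0.00203 in edgeR) and for miR-125b-5p it was 2.57 (SE 0.62, adjusted p = 0.0140 in edgeR), or 5.84-fold and 5.94-fold. In each of these the bovine samples lay above both mouse samples. The size for miR-125b-5p depended on the mouse samples, with 3.75 without sample 1 and 1.93 without sample 2. miR-99a-3p was higher by 2.55 (SE 0.60, adjusted p = 0.0126 in edgeR), a call that was lost without bovine sample 1 (2.24, adjusted p = 0.0853 in edgeR). Its listed strand is shorter in bovine and has another base at position 9.

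The members of the compact cluster did not pass. miR-125a-5p had a log2 fold change of 1.46 (SE 0.63, adjusted p = 0.0937 in edgeR) and miR-99b-5p had 0.32 (SE 0.56, adjusted p = 0.649 in edgeR). These values depended on the mouse samples, which differed most for these strands and miR-125b-5p. For miR-125a-5p the value was 2.76 without mouse sample 1 and 0.79 without mouse sample 2. For miR-99b-5p it was 1.35 without mouse sample 1 and -0.28 without mouse sample 2. With 1 mouse library left, the spread comes from the bovine pools alone, so these values are given without a p-value. Whether the clusters differ from each other in this comparison was not tested.

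The remaining 3 members of the bovine files were under 100 RPM and were tested only without the filter. There miR-100-3p was higher in bovine (log2 fold change 2.34, SE 0.53, adjusted p = 0.00422 in edgeR), miR-99b-3p was lower (-1.71, SE 0.43, adjusted p = 0.00709 in edgeR) and miR-125a-3p did not pass (-0.68, SE 0.46). Without the filter 5 of the 9 members were higher and 1 lower, against 90 and 97 of all 357 tested. These 3 strands are listed in the bovine files under a mouse name and sequence, and their match to the bovine strands was not tested. The human line for miR-125b-2-3p gave 1.23 (SE 0.40, adjusted p = 0.0397 in edgeR) against the mouse strand, from sequences that start at different bases. It too reached 100 RPM in bovine alone.

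Of the let-7 partners, let-7a-5p was higher in bovine (1.56, SE 0.42, adjusted p = 0.0197 in edgeR), a call that was lost without bovine sample 2 (1.33, adjusted p = 0.103 in edgeR). let-7c-5p had -1.36 (SE 0.49, adjusted p = 0.0554 in edgeR) and let-7e-5p had 0.72 (SE 0.63). let-7c-5p passed in DESeq2 (-1.31, adjusted p = 0.00889 in DESeq2), and in edgeR without the filter (adjusted p = 0.0157) and with all 6 libraries in 1 fit (adjusted p = 0.0476). Its value was -1.91 without mouse sample 2 and -0.47 without mouse sample 1. let-7e-5p had 2.04 without mouse sample 1 and 0.05 without mouse sample 2. let-7c-5p over miR-99a-5p was 0.474 and 0.579 in bovine, below both mouse ratios. The miR-10 strands, relatives of miR-99/100 with the seed ACCCTGT in place of ACCCGTA, had 0.11 (SE 0.27) for miR-10b-5p and -2.58 (SE 0.41, adjusted p = 0.00291 in edgeR) for miR-10a-5p.

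Between the species the epithelial markers summed to 77607 and 79458 RPM in bovine, below both mouse samples. Of these, miR-200a-3p, miR-200b-3p, miR-141-3p and miR-429-3p were lower in both bovine samples, and miR-200c-3p and miR-205-5p were higher in both. The 2 endothelial markers summed to 62356 and 55972 RPM, above the 24193 and 34264 RPM of mouse. The fibroblast and smooth muscle markers summed to 78041 and 63692 RPM in bovine, overlapping mouse. Of these, miR-143-3p and miR-199a-5p overlapped, and miR-145-5p, miR-199a-3p and miR-214-3p were higher in both bovine samples. The 3 striated muscle markers summed to 727 and 782 RPM against 163 and 213 RPM, with miR-206-3p overlapping. The 5 leukocyte markers summed to 2553 and 3285 RPM in bovine, above both mouse samples. Of these, miR-142-5p, miR-150-5p and miR-155-5p were higher in both bovine samples, and miR-142-3p and miR-223-3p were lower in both. The 3 erythroid markers summed to 1709 and 1098 RPM against 13343 and 6504 RPM in mouse, with miR-486-5p overlapping. In the bovine libraries none of these markers was at 0, and their part in the species differences of the members was not tested.

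**Figure D4:**
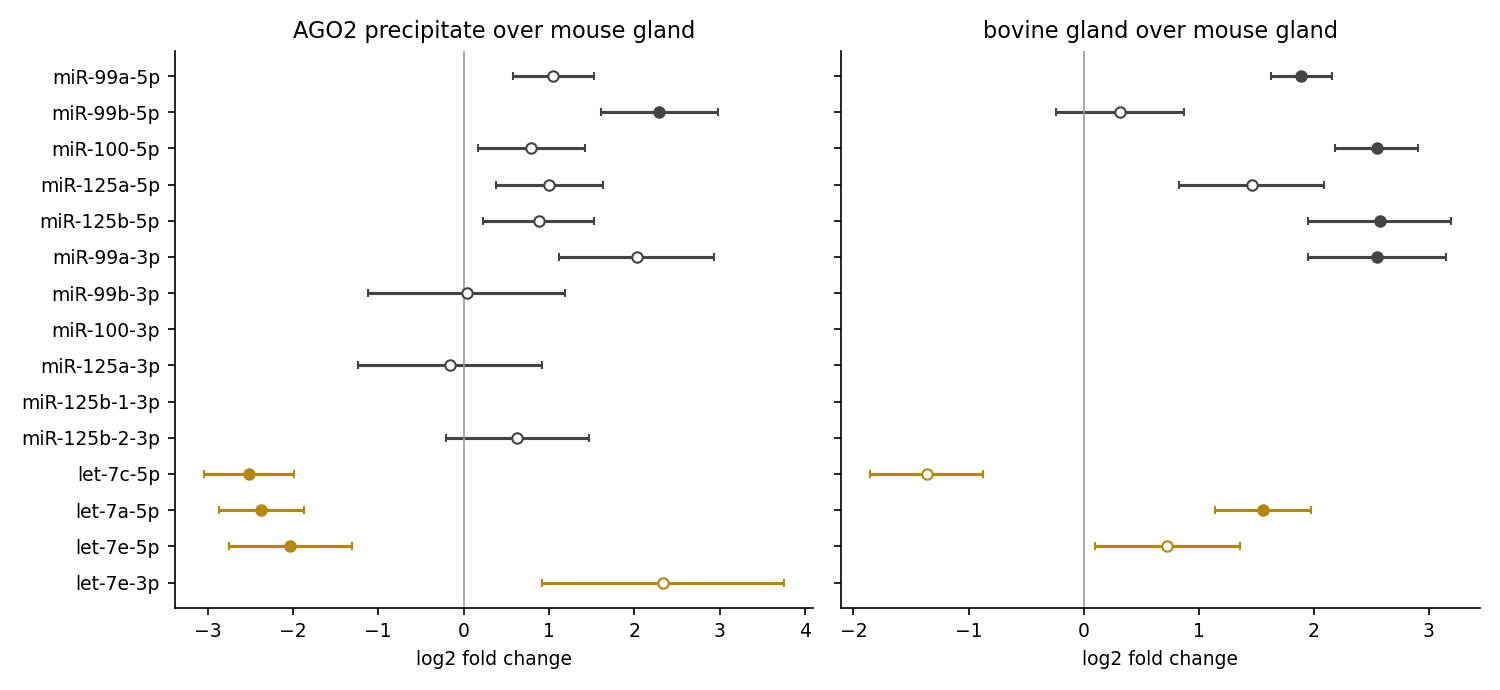
Log2 fold changes from edgeR with standard errors derived from its F statistic. AGO2 over the mouse gland is on the left and the bovine over the mouse gland on the right, with members in grey and let-7 partners in gold. Filled points passed an adjusted p of 0.05 and open points did not; strands without a point were under the filter or had no line under a mouse or bovine name. On the left the let-7 5p strands lie below 0 and the 5p members above it, with miR-99b-5p passing, and on the right 4 members pass above 0.

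Profiles over the 6 libraries were compared by the root-mean-square difference of log2(RPM + 1), each centred on its own mean, among 158 miRNA. The profile nearest to miR-99a-5p was that of miR-150-5p (0.30), to miR-100-5p that of miR-205-5p (0.24), to miR-125a-5p that of miR-342-3p (0.38) and to miR-125b-5p that of miR-374b-5p (0.29). miR-125b-5p has a partner on each of 2 chromosomes. miR-100-5p, on chromosome 9, was the 2nd nearest to it (0.43), and miR-99a-5p, on chromosome 16, came 14th (0.69). In the other direction miR-125b-5p came 6th for miR-100-5p and 23rd for miR-99a-5p. For miR-99b-5p the nearest, miR-486-5p, was much farther away (0.73), and its cluster partner miR-125a-5p came 22nd (1.05). The next 2 were miR-186-5p and miR-342-3p for miR-99a-5p, miR-151-3p and miR-139-5p for miR-100-5p, miR-23b-3p and miR-374b-5p for miR-125a-5p, and miR-30d-5p and miR-365-3p for miR-99b-5p, and miR-423-3p was the third for miR-125b-5p. These are descriptions over libraries that share species and preparation.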

How the data were processed

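The authors deposited counts, 1 value for each mature miRNA and library, made by removing poly-A stretches, size selection and the quantifier of miRDeep2 on miRBase precursors, without normalisation. The deposited lists of predicted precursors hold a score and were not used. Members, gene lists and tests were chosen with earlier results of these data known. Lines of 1 name were kept once, and 359 miRNA were matched between species by name and arm, 229 of them with a bovine name. All members are named, with their let-7 partners, seed relatives and the 3 nearest profiles.

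The main test was that of edgeR 4.0.16, run in R 4.3.3 (TMM, quasi-likelihood F test, Benjamini and Hochberg adjustment over all miRNA tested, threshold 0.05). The SE beside an edgeR value was derived, as the log2 fold change without its sign over the square root of the F statistic. Filters were a count above 175 in any library for AGO2 and 100 RPM for bovine. Procedures were tested on simulated counts. DESeq2 1.42.0, its size factors in edgeR, library totals, other filters, summed near-identical strands, bovine names only, 1 fit of all 6 libraries and leaving out each library were the alternatives, and a block for the study's sample number was added after the data were seen. Library totals in these fits were sums over the miRNA tested, not the sums over all listed miRNA that RPM uses. Sequences were compared with RefSeq and positions with GENCODE, both for GRCm38. Python 3.11.15 was used.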

Additional observations from a re-analysis of the deposited data

How the results depend on the processing

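For AGO2 over mouse, DESeq2 called 3 members higher (miR-99a-3p, miR-99a-5p and miR-99b-5p), and the number ranged from 0 to 2 when a library was left out. Without mouse sample 1 miR-125a-5p passed, without AGO2 sample 2 miR-99a-3p did, and without mouse sample 2 none did. With the replicate block described below 3 were called, and with every other alternative 1, miR-99b-5p, and no member was called lower under any. The sign of miR-125a-3p turned without mouse sample 1 (0.53) and without AGO2 sample 2 (0.58; range -1.36 to 0.58), and that of miR-99b-3p turned with library totals alone (-0.12), with no filter (-0.15) and without mouse sample 2 (-0.16; range -0.16 to 0.30). For bovine over mouse, 3 to 6 members were called higher when a library was left out, and with no filter 1 of 9 was called lower, miR-99b-3p. miR-99b-5p ranged from -0.28 without mouse sample 2 to 1.35 without mouse sample 1. miR-125a-5p passed in DESeq2 (1.53), with library totals alone (1.97) and with all 6 libraries in 1 fit (1.53). Summing near-identical strands left the joint strands of miR-99a-5p with miR-100-5p, and of miR-125a-5p with miR-125b-5p, higher in bovine. Over all miRNA, the calls without the filter were 90 higher and 97 lower in bovine, and leaving out a library gave 29 to 64 higher and 26 to 58 lower. For AGO2, DESeq2 gave 69 and 48, no filter gave 29 and 34, and leaving out a library gave 28 to 65 and 22 to 41. The cause of these changes was not tested.

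Over library sizes adjusted by TMM in the AGO2 fit, the miR-99/100 sums were 4020 in mouse and 8831 in AGO2. The bovine sum was 20641 in the bovine fit, which has another scale, so it cannot be set against them. In mouse, miR-99a-5p had 3492 and 3793 on the scale of the AGO2 fit and 5021 and 5110 on that of the bovine fit. Each library alone gave sums of 4132 to 4324, 8093 to 8585 and 20039 to 20159 RPM, and for miR-125 841 to 3172, 2771 to 4217 and 9274 to 10090 RPM. The study numbers its mouse and AGO2 samples 1 and 2, but no source ties a number to an animal, and the difference of sample 1 from sample 2 correlated with r = 0.22 between mouse and AGO2 across 299 miRNA, which are not independent. With the number as a replicate block, an alternative added after the data were seen, 3 members were called higher, miR-99a-5p (1.05), miR-125a-5p (1.25) and miR-99b-5p (2.48), and over all miRNA 60 were higher and 61 lower. Where a library was left out, the lone library of its group was assumed to vary like the other group. Calls made in that way do not measure the spread within the group that lost a library. With 2 libraries per group, the spread rests on 1 difference within each, and the AGO2 libraries had the fewest counts.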

Other observations

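The passenger strands of the let-7 partners were rare. let-7e-3p had 5.56 ± 1.12 RPM in the mouse gland and 24.8 ± 16.6 RPM in AGO2 (SD, n = 2 each), with a log2 fold change of 2.34 (SE 1.42, adjusted p = 0.209 in edgeR). Both AGO2 samples were above both mouse samples, but the value did not pass the test. The strand passed the filter through AGO2 sample 2 alone, at 184 counts, against 51 in AGO2 sample 1 and 59 and 40 in mouse. Its fold change and sign therefore come with the filter and are no support. let-7c-1-3p held 2 and 5 counts in mouse and 0 and 11 in AGO2, too few to compare, and let-7e-3p in bovine, under a human name, held 28 and 32 counts. let-7a-2-3p was not analysed here.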
